A study of Mus musculus with 12 samples.

Results

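The amino acid transporter genes described here are those whose symbol in the array's probe annotation is Slc1a, Slc3a, Slc6a, Slc7a, Slc36a, Slc38a or Slc43a followed by a number. The array holds 106 probes for 58 such genes, of 41174 probes and 19526 genes with a symbol. All 58 genes were tested, among 27173 features. The symbol rule also takes in a few carriers whose main cargo is no proteinogenic amino acid: the monoamine carriers Slc6a2, Slc6a3 and Slc6a4 and the carriers of GABA, betaine, taurine and creatine. The RNA was from growth plate cartilage of the femur of Swiss White mice aged 14 days, microdissected from cryosections as proliferative, prehypertrophic and hypertrophic zones, with 4 samples of each. No treatment or mutation is named for any zone, and all RNA was amplified before labelling. Of the 6 two-colour arrays, 2 were used for every zone pair, and between those 2 arrays the dyes were turned round. Nothing in the labels tells if a zone's 4 samples are from different animals, so p-values measure the spread between these samples, which may be partly technical.

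Cells take up amino acids through carriers of several families. SLC38 system A carriers couple the uptake of small neutral amino acids such as glutamine, alanine and proline to sodium. SLC7 light chains exchange amino acids across the membrane and most reach it only as a pair with a heavy chain of the SLC3 family, while SLC43 carriers let large neutral amino acids pass by facilitated diffusion. SLC1 proteins carry glutamate or exchange small neutral amino acids, SLC6 proteins carry glycine, proline, neutral amino acids and related solutes, and SLC36 proteins couple transport to protons. Growth plate chondrocytes make a matrix rich in collagen, a protein with much glycine and proline, and grow in cartilage without blood vessels until hypertrophic cartilage is invaded from the marrow.

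A level below is the log2 channel signal of 1 sample relative to that sample's 75th percentile, and a change is the log2 difference between 2 zones from a linear model on the ratios within arrays, with its standard error. A change passed when its Benjamini-Hochberg adjusted p over all 27173 features was under 0.05. The scanner flagged 92.6% to 96.2% of non-control spots as well above background, and samples of 1 zone correlated at 0.9499 to 0.973. Of the 58 genes, 56 were well above background in all 12 samples by the scanner's flag. That flag is weak here, since 10.8% to 86.6% of the 314 negative control spots carried it. Measured against the 95th percentile of the negative controls in each sample, 53 genes lay above it in all 12 samples. Slc3a1, Slc6a5, Slc6a15 and Slc7a2 lay above it in 10 or 11 samples, and Slc6a19 in none.

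The chondrocyte marker genes followed the zones in part. The summed linear level of the 5 hypertrophic chondrocyte markers was 4.39 to 15.2 in proliferative, 74.3 to 125 in prehypertrophic and 182 to 273 in hypertrophic samples. The 5 prehypertrophic chondrocyte markers summed to 29.3 to 51.5, 165 to 231 and 131 to 156 in the same order of zones. The 8 proliferating chondrocyte markers summed to 296 to 433, 187 to 310 and 189 to 284. Their proliferative and prehypertrophic ranges overlapped, and in hypertrophic over proliferative samples 4 of the 8 fell and 3 rose. The hypertrophic samples also had higher summed levels of the marker lists for cells that are not chondrocytes. The 15 leukocyte and marrow markers summed to 42.9 to 55.0 in proliferative, 48.0 to 67.2 in prehypertrophic and 273 to 345 in hypertrophic samples, and 14 of them were higher in hypertrophic than in proliferative samples. The 7 erythroid markers summed to 18.4 to 83.6, 16.9 to 107 and 132 to 205 in the same order of zones, the 9 osteoclast markers to 14.5 to 15.7, 13.3 to 16.7 and 29.9 to 32.3, and the 11 endothelial markers to 4.00 to 4.59, 4.15 to 5.20 and 13.5 to 15.7. The 7 osteoblast markers summed to 76.3 to 105, 42.3 to 49.3 and 141 to 213. In hypertrophic over proliferative samples 7 erythroid, 8 endothelial and 6 osteoblast markers rose, and 1 osteoblast marker fell. The osteoclast markers were mixed there, with 5 of the 9 higher and 3 lower. The part of such cells in any rise in the hypertrophic samples was not tested. Of the 15 leukocyte and marrow markers, 3 rose and 1 fell in prehypertrophic over proliferative samples, and the sums of the list overlapped between these zones. In these bulk samples, fewer cells of a type and less RNA per cell cannot be told apart.

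Transporter genes differed widely between zones, in both directions. In hypertrophic over proliferative samples 41 of the 58 genes passed (70.7%), 22 higher and 19 lower, where 58.9% of all features passed, 28.2% higher and 30.7% lower. In prehypertrophic over proliferative samples 34 passed (58.6%), 24 higher and 10 lower, where 45.9% of all features passed, 23.4% higher and 22.5% lower. In hypertrophic over prehypertrophic samples 43 passed (74.1%), 18 higher and 25 lower, where 58.1% of all features passed, 28% higher and 30% lower. The count of 10 falls in prehypertrophic over proliferative samples was unstable, at 4 to 8 when 1 array was left out. Each call was also followed through 19 other settings of the processing and the fit. In the same order of comparisons, 24 of the 41 calls, 17 of the 34 and 24 of the 43 held in every setting that gave the gene a value.

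Changes of at least 2-fold that passed were also counted. There were 18 such genes (31%) in hypertrophic over proliferative samples, 12 higher and 6 lower, where 14.8% of all features did so. There were 8 (13.8%, against 7.68% of all features) in prehypertrophic over proliferative samples, 7 of them higher, and 9 (15.5%, against 10.4%) in hypertrophic over prehypertrophic samples, 4 higher and 5 lower. The median size of a change among the 58 genes was 0.39, 0.21 and 0.37 in the same order of comparisons, and 0.30, 0.20 and 0.28 among all features. The median signed change of the genes lay at -0.02, 0.12 and -0.09, and that of all features at -0.03, 0.02 and -0.04. Of the 18, 8 and 9 calls of at least 2-fold, 16, 8 and 9 kept their call and direction in every such setting. The exceptions were Slc36a2 and Slc3a1 in hypertrophic over proliferative samples. Whether a change stayed at least 2-fold was not part of this count. With the mean of a gene's probes, Slc1a1, Slc38a4 and Slc38a10 stood at 0.90, 0.58 and -0.54 in that comparison, under 2-fold. The counts and medians are descriptions, not tests of the gene set.

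**Figure D1:**
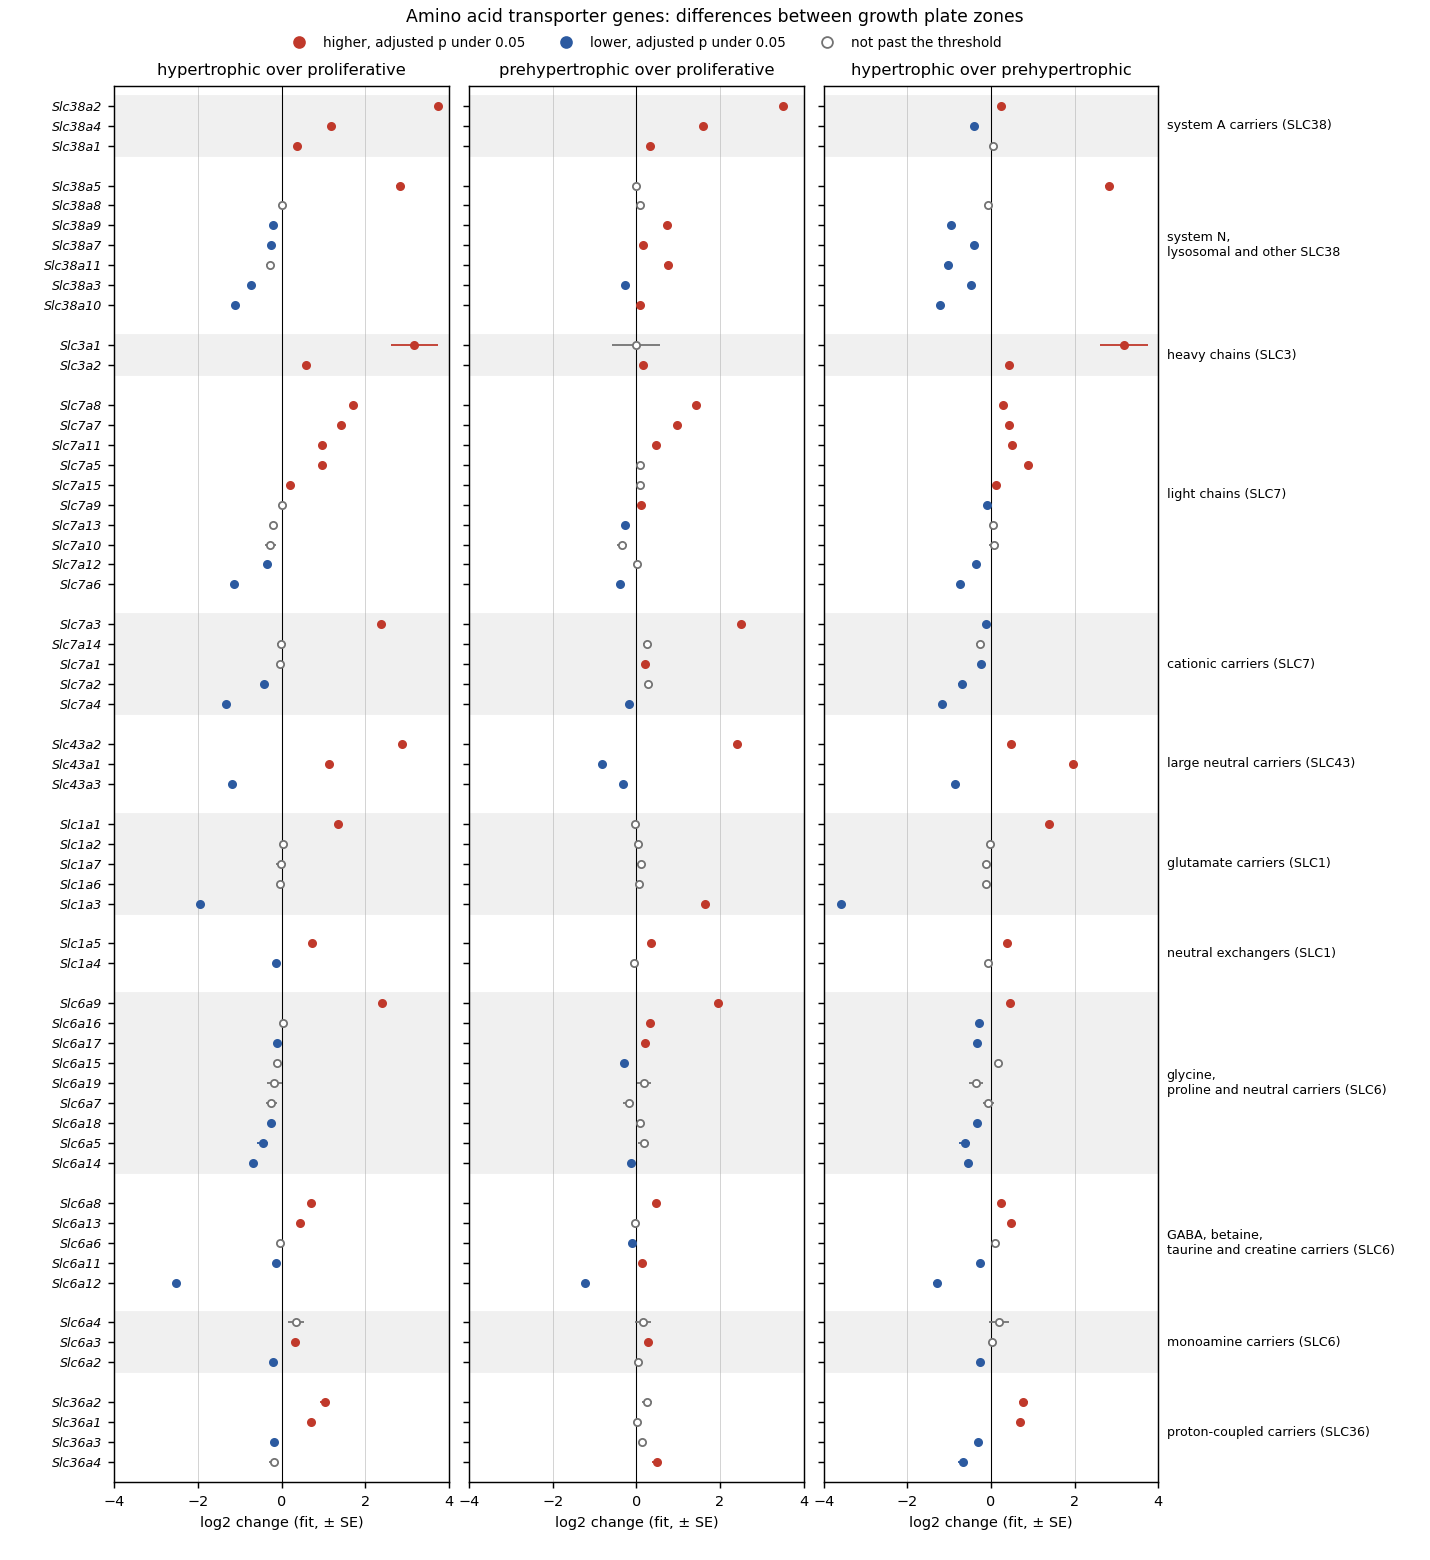
Log2 change ± SE of the 58 transporter genes in 3 comparisons of zones (x axes), grouped by carrier class (y axis); filled red and blue points passed as higher and lower, open points did not pass. Slc38a2 lies furthest right in the first 2 panels at 3.73 and 3.50, and Slc1a3 furthest left in the last at -3.59.

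Along the axis from proliferative through prehypertrophic to hypertrophic samples, 9 genes passed as higher in both steps (15.5%, against 7.72% of all features) and 6 as lower in both steps (10.3%, against 6.81%). A rise into the prehypertrophic zone followed by a fall into the hypertrophic zone was called in 13 genes (22.4%, against 11% of all features). These were Slc1a3, Slc36a4, Slc38a4, Slc38a7, Slc38a9, Slc38a10, Slc38a11, Slc6a11, Slc6a16, Slc6a17, Slc7a1, Slc7a3 and Slc7a9. That count moved between 7 and 14 over the 19 other settings, and 5 of the 13 genes kept both calls in all of them: Slc1a3, Slc38a4, Slc38a9, Slc38a11 and Slc6a16. The first step was narrow for Slc6a11, Slc38a10 and Slc7a1, with adjusted p of 0.0424, 0.0479 and 0.0496, and was lost in 12, 14 and 12 settings. The change of Slc38a10 and Slc7a1 there turned to -0.13 and -0.026 when the mean of each gene's probes was used. At the second step the fall of Slc7a3, at -0.12 ± 0.027, was lost in 5 settings, among them those without array 3, 4 or 5. A single gene, Slc43a1, fell and then rose (1.72%, against 10.7% of all features). At the step into the hypertrophic zone alone, 8 genes rose (13.8%, against 9.61%) and 6 fell (10.3%, against 12.3%). Here alone means that the other step did not pass. Another 10 genes passed at neither step (17.2%, against 32.2% of all features).

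The system A carriers gave the largest rise of all the transporter genes. Slc38a2 encodes SNAT2, the carrier of this class that cells induce when amino acids run short. Its levels were 1.88, 1.44, 1.67 and 1.23 in proliferative samples 1 to 4, 4.90, 4.95, 5.20 and 4.86 in prehypertrophic samples and 5.36, 5.16, 5.02 and 5.19 in hypertrophic samples. The proliferative samples lay far below all others, and the prehypertrophic and hypertrophic samples overlapped. The change was 3.73 ± 0.044 (SE, adjusted p = 1.82e-05) in hypertrophic over proliferative samples, a 13.3-fold difference, and 3.50 ± 0.044 (SE, adjusted p = 3.88e-05) in prehypertrophic over proliferative samples, an 11.3-fold difference. All 4 probes of the gene gave the same direction in these 2 comparisons, with changes from 2.28 to 4.35 and from 2.33 to 3.50. The step into the hypertrophic zone was small, 0.24 ± 0.044 (SE, adjusted p = 0.0117), and did not pass without array 3 or array 4 (adjusted p = 0.0618 and 0.0752). There 1 of the other 3 probes fell by 0.10 while another rose by 1.59.

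Slc38a4, which encodes SNAT4, was highest in the prehypertrophic zone. Its levels were 2.58, 2.51, 2.50 and 2.19 in proliferative samples 1 to 4, 3.87, 4.11, 4.199 and 3.76 in prehypertrophic samples and 3.75, 3.50, 3.44 and 3.54 in hypertrophic samples. The zones did not overlap, the prehypertrophic samples being the highest by a narrow margin. It rose by 1.59 ± 0.025 (SE, adjusted p = 3.98e-05) in prehypertrophic over proliferative samples and by 1.18 ± 0.025 (SE, adjusted p = 2.14e-05) in hypertrophic over proliferative samples, and fell with a change of -0.41 ± 0.025 (SE, adjusted p = 0.00034) in hypertrophic over prehypertrophic samples. A second, dimmer probe for the same transcript accession gave 0.12 and -0.02 in the first 2 of these comparisons, so the size of the rise rests on 1 probe. Slc38a1, which encodes SNAT1, rose less, by 0.36 ± 0.044 (SE, adjusted p = 0.00266) in hypertrophic over proliferative samples and by 0.32 ± 0.044 (SE, adjusted p = 0.0056) in prehypertrophic over proliferative samples, and another of its probes passed as lower in the second comparison.

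**Figure D2:**
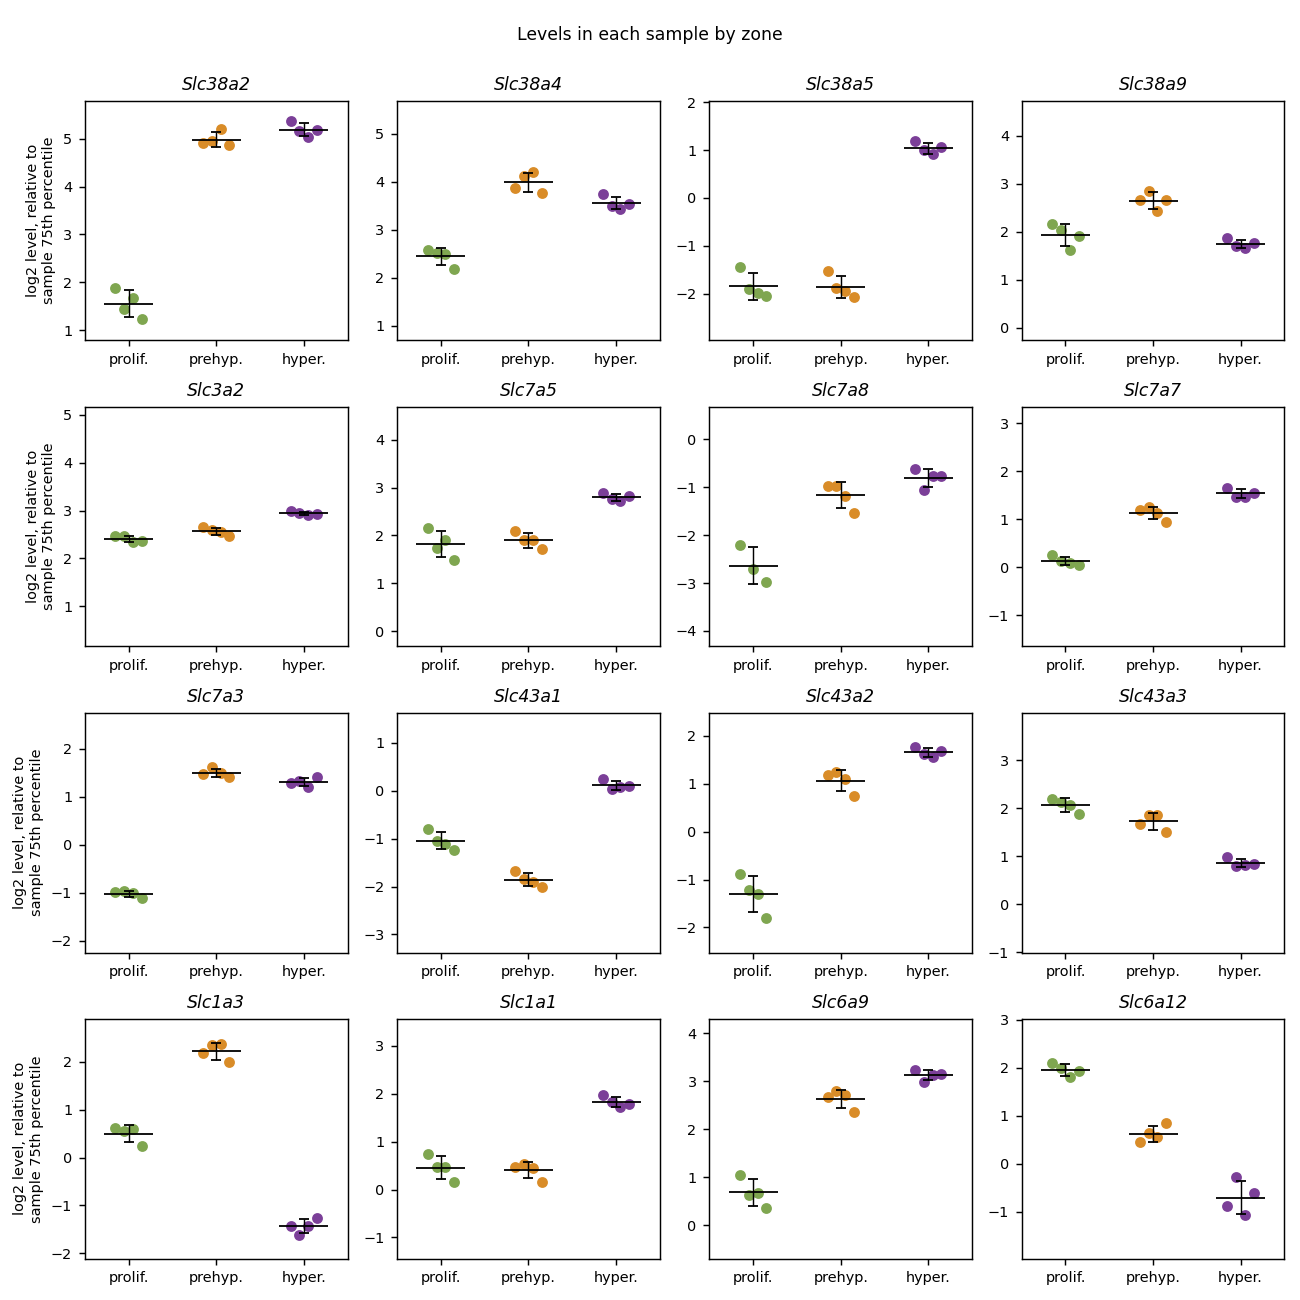
Log2 level of 16 transporter genes in each sample (points, y axis), by zone in anatomical order (x axis), with the mean and SD of 4 samples (3 for Slc7a8 in the proliferative zone); each panel has its own range. Slc38a2 stands at 1.23 to 1.88 in the proliferative zone and at 4.86 to 5.36 in the others, and Slc1a3 is highest in the prehypertrophic zone at 1.99 to 2.36.

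Of the 7 other SLC38 genes, 5 fell and 1 rose at the step into the hypertrophic zone (against 30% and 28% of all features). The gene that rose was Slc38a5, which encodes the system N carrier SNAT5 for glutamine, histidine and asparagine. Its levels were -1.44, -1.91, -1.97 and -2.05 in proliferative samples 1 to 4, -1.53, -1.87, -1.94 and -2.07 in prehypertrophic samples and 1.18, 1.00, 0.91 and 1.06 in hypertrophic samples. The 4 hypertrophic samples lay more than 2 units above every other sample. The change was 2.82 ± 0.085 (SE, adjusted p = 4.01e-05) in hypertrophic over proliferative samples and 2.82 ± 0.085 (SE, adjusted p = 6.74e-05) in hypertrophic over prehypertrophic samples. In prehypertrophic over proliferative samples it did not pass, with a 95% interval from -0.23 to 0.23. The rise stood in the samples in which the leukocyte and erythroid markers were also high, and the part of those cells in it was not tested.

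Slc38a9 encodes the lysosomal carrier that senses arginine for mTORC1. Its levels were 2.16, 2.03, 1.63 and 1.91 in proliferative samples 1 to 4, 2.66, 2.84, 2.43 and 2.67 in prehypertrophic samples and 1.86, 1.70, 1.66 and 1.76 in hypertrophic samples. All prehypertrophic samples lay above all others. It rose by 0.74 ± 0.024 (SE, adjusted p = 9.38e-05) in prehypertrophic over proliferative samples, and its change in hypertrophic over prehypertrophic samples was -0.95 ± 0.024 (SE, adjusted p = 5.15e-05). Of the other 3 probes, 1 gave 0.76 and 2 gave -0.15 and -0.17 in prehypertrophic over proliferative samples, and 1 of these passed as lower, so the prehypertrophic peak is a result of the brightest probe.

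Slc38a3 encodes SNAT3, a glutamine carrier of system N. Its levels were 1.35, 1.33, 1.24 and 1.09 in proliferative samples 1 to 4, 1.09, 1.03, 1.03 and 0.76 in prehypertrophic samples and 0.56, 0.53, 0.46 and 0.44 in hypertrophic samples. The hypertrophic samples lay below all others. Its change was -0.74 ± 0.044 (SE, adjusted p = 0.000251) in hypertrophic over proliferative samples and -0.27 ± 0.044 (SE, adjusted p = 0.00931) in prehypertrophic over proliferative samples.

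Slc38a10 had levels of 3.36, 3.38, 3.18 and 3.15 in proliferative samples 1 to 4, 3.30, 3.46, 3.42 and 3.15 in prehypertrophic samples and 2.23, 2.10, 2.09 and 2.03 in hypertrophic samples. Proliferative and prehypertrophic samples overlapped, and all hypertrophic samples lay well below them. The change was -1.12 ± 0.027 (SE, adjusted p = 2.6e-05) in hypertrophic over proliferative samples and -1.22 ± 0.027 (SE, adjusted p = 4.46e-05) in hypertrophic over prehypertrophic samples, and a second probe for the same accession did not pass in either, at 0.039 and 0.40. Slc38a11 had levels of -1.63, -1.63, -0.88 and -0.39 in proliferative samples 1 to 4, -0.88, -0.53, -0.11 and 0.53 in prehypertrophic samples and -1.85, -2.26, -1.88 and -1.70 in hypertrophic samples, and these spread widely within the proliferative and prehypertrophic zones. Within arrays the spread was smaller, and the change was -1.03 ± 0.089 (SE, adjusted p = 0.000977) in hypertrophic over prehypertrophic samples. The lysosomal glutamine carrier gene Slc38a7 followed the same course in smaller steps, with 0.15 ± 0.033 in prehypertrophic over proliferative samples and -0.40 ± 0.033 in hypertrophic over prehypertrophic samples. Its rise was lost in 8 of 19 settings, among them those without array 1, 3, 4, 5 or 6. Its proliferative and prehypertrophic levels overlapped. Slc38a8 passed in no comparison.

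By the probe used for each, the 2 heavy chain genes were both higher in the hypertrophic zone. Slc3a2 encodes 4F2hc (CD98), the partner of LAT1, LAT2, xCT and the y+LAT light chains. Its levels were 2.47, 2.46, 2.35 and 2.36 in proliferative samples 1 to 4, 2.65, 2.60, 2.56 and 2.47 in prehypertrophic samples and 2.99, 2.95, 2.91 and 2.93 in hypertrophic samples. The hypertrophic samples lay above all others by a narrow margin. The change was 0.57 ± 0.038 (SE, adjusted p = 0.000362) in hypertrophic over proliferative samples and 0.42 ± 0.038 (SE, adjusted p = 0.00112) in hypertrophic over prehypertrophic samples. In prehypertrophic over proliferative samples it was 0.15 ± 0.038 (SE, adjusted p = 0.034), which turned to -0.022 when the mean of the gene's probes was used. A second probe of Slc3a2 passed in none of these comparisons, at 0.16, 0.35 and -0.20 in the same order.

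Slc3a1 encodes rBAT, which pairs with the light chain of Slc7a9. Its levels were -3.27, -4.12, -4.57 and -3.27 in proliferative samples 1 to 4, -6.44, -2.94, -3.64 and -3.35 in prehypertrophic samples and -0.74, -1.25, -1.36 and -1.10 in hypertrophic samples. The proliferative and prehypertrophic values spread over more than 1 unit each and lay close to the negative controls, whose 95th percentile ran from -4.25 to -3.15. All hypertrophic samples lay above these. The change was 3.17 ± 0.57 (SE, adjusted p = 0.0099) in hypertrophic over proliferative samples and 3.17 ± 0.57 (SE, adjusted p = 0.0101) in hypertrophic over prehypertrophic samples, with the widest standard error among the changes that passed. Without array 2 the first of these did not pass, at 2.89 (adjusted p = 0.0625), and the 2 arrays that set prehypertrophic and hypertrophic samples side by side gave red over green log2 ratios of -5.18 with the hypertrophic sample in green and 1.95 with it in red. Its light chain gene Slc7a9 did not pass in hypertrophic over proliferative samples, at 0.012 ± 0.023.

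Among the 10 light chain genes, 5 rose and 2 fell in hypertrophic over proliferative samples (against 28.2% and 30.7% of all features). The partners of 4F2hc did not move together. Slc7a5 encodes LAT1, which exchanges glutamine for leucine and other large neutral amino acids. Its levels were 2.15, 1.73, 1.90 and 1.49 in proliferative samples 1 to 4, 2.10, 1.90, 1.91 and 1.72 in prehypertrophic samples and 2.88, 2.77, 2.72 and 2.82 in hypertrophic samples. It stayed within overlapping ranges in the proliferative and prehypertrophic zones and was higher in every hypertrophic sample. The change was 0.96 ± 0.029 (SE, adjusted p = 3.89e-05) in hypertrophic over proliferative samples and 0.88 ± 0.029 (SE, adjusted p = 7.63e-05) in hypertrophic over prehypertrophic samples, and in prehypertrophic over proliferative samples it did not pass at 0.087 ± 0.029 (SE, adjusted p = 0.0738).

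Slc7a8, which encodes the related LAT2, rose one step earlier. Its levels were -2.22, -2.71 and -2.98 in proliferative samples 1, 3 and 4, -0.97, -0.97, -1.19 and -1.54 in prehypertrophic samples and -0.62, -1.07, -0.76 and -0.77 in hypertrophic samples. The spot of proliferative sample 2 had an outlier flag and was left out, so 5 of the 6 ratios entered its fit. All proliferative samples lay below all others. The change was 1.43 ± 0.038 (SE, adjusted p = 0.000238) in prehypertrophic over proliferative samples and 1.71 ± 0.045 (SE, adjusted p = 0.000142) in hypertrophic over proliferative samples. Slc7a7, which encodes y+LAT1, a carrier that exports cationic amino acids in exchange for neutral ones, took the same course, with 0.98 ± 0.044 in prehypertrophic over proliferative samples and 1.42 ± 0.044 in hypertrophic over proliferative samples. The related Slc7a6, which encodes y+LAT2, went the other way.

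Slc7a6 had levels of 1.63, 1.34, 1.43 and 0.98 in proliferative samples 1 to 4, 0.98, 0.92, 1.00 and 0.67 in prehypertrophic samples and 0.28, 0.27, 0.090 and 0.14 in hypertrophic samples. Hypertrophic samples lay below all others. The change was -1.13 ± 0.035 (SE, adjusted p = 4.34e-05) in hypertrophic over proliferative samples and -0.40 ± 0.035 (SE, adjusted p = 0.00134) in prehypertrophic over proliferative samples. All 3 probes of the gene were lower in both, 2 of them past the threshold.

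The remaining light chain genes moved little by their brightest probe. Slc7a15 rose by 0.19 ± 0.023 and Slc7a12 fell with -0.34 ± 0.033 in hypertrophic over proliferative samples, Slc7a13 passed in prehypertrophic over proliferative samples alone, at -0.26 ± 0.064, and Slc7a10 passed in no comparison. A second probe of Slc7a13 passed as higher in hypertrophic over proliferative and in hypertrophic over prehypertrophic samples, at 1.80 and 1.58, with a standard error of 0.34. The second probe of Slc7a15 gave -0.80 in hypertrophic over proliferative samples and did not pass. The mean of both Slc7a15 probes did not pass there.

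Slc7a11 encodes xCT, which takes up cystine in exchange for glutamate and so feeds glutathione synthesis. Its levels were -2.22, -2.98, -2.61 and -2.15 in proliferative samples 1 to 4, -2.07, -2.14, -2.03 and -1.55 in prehypertrophic samples and -1.45, -2.13, -1.77 and -1.51 in hypertrophic samples. The proliferative samples lay just below all others, and the other zones overlapped. The change was 0.98 ± 0.071 (SE, adjusted p = 0.000506) in hypertrophic over proliferative samples, 0.48 ± 0.071 (SE, adjusted p = 0.00701) in prehypertrophic over proliferative samples and 0.50 ± 0.071 (SE, adjusted p = 0.00501) in hypertrophic over prehypertrophic samples. The 4 probes of the gene gave 0.082 to 2.35 in hypertrophic over proliferative samples, and 3 of them passed as higher.

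Cationic amino acid carriers split in the same way. Slc7a3 encodes CAT3, a carrier of arginine, lysine and ornithine. Its levels were -0.99, -0.97, -1.01 and -1.11 in proliferative samples 1 to 4, 1.48, 1.62, 1.49 and 1.42 in prehypertrophic samples and 1.29, 1.33, 1.20 and 1.42 in hypertrophic samples. Every prehypertrophic and hypertrophic sample lay more than 2 units above every proliferative one. The change was 2.49 ± 0.027 (SE, adjusted p = 3.88e-05) in prehypertrophic over proliferative samples and 2.37 ± 0.027 (SE, adjusted p = 1.82e-05) in hypertrophic over proliferative samples. Slc7a1, which encodes the widely expressed CAT1, had levels of 4.75, 4.56, 5.33 and 5.43 in proliferative samples 1 to 4, 4.94, 5.00, 5.51 and 5.77 in prehypertrophic samples and 4.71, 4.32, 4.70 and 4.60 in hypertrophic samples. The hypertrophic and proliferative ranges overlapped, and its change did not pass in hypertrophic over proliferative samples, at -0.035 ± 0.059 (SE, adjusted p = 0.64). A second probe for the same accession fell by 1.76 there and by 1.50 in hypertrophic over prehypertrophic samples, where the brightest probe gave -0.24 ± 0.059. The brightest probe was saturated in 1 prehypertrophic sample, and its fall there did not pass without array 1, 2, 3 or 4.

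Slc7a4, a member of this subfamily whose cargo is not settled, had levels of -1.42, -0.96, -1.26 and -1.06 in proliferative samples 1 to 4, -1.20, -1.25, -1.25 and -1.29 in prehypertrophic samples and -2.72, -2.56, -2.31 and -2.64 in hypertrophic samples. The hypertrophic samples lay well below all others. The change was -1.34 ± 0.028 (SE, adjusted p = 2.14e-05) in hypertrophic over proliferative samples and -1.17 ± 0.028 (SE, adjusted p = 4.92e-05) in hypertrophic over prehypertrophic samples. Slc7a2, which encodes CAT2 and lay near the negative controls in 1 sample, changed by -0.41 ± 0.085 in hypertrophic over proliferative samples. The levels of these zones overlapped, with means of -3.12 in hypertrophic and -3.13 in proliferative samples. The call was lost without the dye term, with the replicate number as a block and without array 1. Slc7a14 passed in no comparison.

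The 3 SLC43 genes took 3 different courses. Slc43a1 encodes LAT3, and its levels were -0.81, -1.04, -1.10 and -1.23 in proliferative samples 1 to 4, -1.67, -1.84, -1.91 and -2.0004 in prehypertrophic samples and 0.24, 0.032, 0.074 and 0.10 in hypertrophic samples. Prehypertrophic samples were the lowest and hypertrophic samples the highest, with no overlap. The change was -0.81 ± 0.037 (SE, adjusted p = 0.000198) in prehypertrophic over proliferative samples and 1.95 ± 0.037 (SE, adjusted p = 4.24e-05) in hypertrophic over prehypertrophic samples. Hypertrophic over proliferative samples gave 1.14 ± 0.037 (SE, adjusted p = 4.64e-05).

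Slc43a2 encodes LAT4, and its levels were -0.89, -1.22, -1.29 and -1.80 in proliferative samples 1 to 4, 1.18, 1.24, 1.09 and 0.75 in prehypertrophic samples and 1.75, 1.61, 1.55 and 1.68 in hypertrophic samples. The proliferative samples lay below all others, and the prehypertrophic samples below the hypertrophic ones. The change was 2.86 ± 0.036 (SE, adjusted p = 1.82e-05) in hypertrophic over proliferative samples and 2.40 ± 0.036 (SE, adjusted p = 3.89e-05) in prehypertrophic over proliferative samples. This is the value of the brighter of 2 probes, designed on a cDNA clone. The probe designed on the RefSeq transcript gave -0.096 and -0.14 in the same comparisons and did not pass, so the rise rests on 1 of the 2 probes.

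Slc43a3 encodes a carrier of the same family known as a purine nucleobase transporter, and its levels were 2.19, 2.13, 2.07 and 1.87 in proliferative samples 1 to 4, 1.68, 1.86, 1.87 and 1.50 in prehypertrophic samples and 0.98, 0.80, 0.81 and 0.84 in hypertrophic samples. They stepped down along the axis, with the hypertrophic samples below all others. The change was -1.18 ± 0.024 (SE, adjusted p = 2.11e-05) in hypertrophic over proliferative samples, -0.33 ± 0.024 (SE, adjusted p = 0.000771) in prehypertrophic over proliferative samples and -0.85 ± 0.024 (SE, adjusted p = 6.15e-05) in hypertrophic over prehypertrophic samples.

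Of the 5 glutamate carrier genes, only Slc1a1 and Slc1a3 passed in any comparison by their brightest probe, while Slc1a2, Slc1a6 and Slc1a7 passed in none. Among the dimmer probes of Slc1a2, 2 passed as higher in prehypertrophic over proliferative samples, at 1.64 and 1.68. Slc1a3 encodes EAAT1, also called GLAST, a high-affinity glutamate and aspartate carrier. Its levels were 0.62, 0.54, 0.61 and 0.24 in proliferative samples 1 to 4, 2.18, 2.35, 2.36 and 1.99 in prehypertrophic samples and -1.43, -1.62, -1.44 and -1.26 in hypertrophic samples. The 3 zones were apart from each other, with the prehypertrophic samples on top and the hypertrophic ones at the bottom. It rose by 1.64 ± 0.057 (SE, adjusted p = 0.000103) in prehypertrophic over proliferative samples, and its change in hypertrophic over prehypertrophic samples was -3.59 ± 0.057 (SE, adjusted p = 3.94e-05), a 12-fold difference. Hypertrophic over proliferative samples gave -1.94 ± 0.057 (SE, adjusted p = 3.74e-05). A second probe passed in the same direction in all 3 comparisons, at 1.03, -2.84 and -1.82, and the third passed in none.

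Slc1a1 encodes EAAT3, which also takes up cysteine. Its levels were 0.75, 0.48, 0.47 and 0.15 in proliferative samples 1 to 4, 0.47, 0.53, 0.45 and 0.16 in prehypertrophic samples and 1.97, 1.82, 1.73 and 1.79 in hypertrophic samples. Proliferative and prehypertrophic samples overlapped, and all hypertrophic samples lay well above them. The change was 1.35 ± 0.031 (SE, adjusted p = 2.39e-05) in hypertrophic over proliferative samples and 1.38 ± 0.031 (SE, adjusted p = 4.54e-05) in hypertrophic over prehypertrophic samples. A second probe of the gene also passed as higher in both, at 0.45 and 0.98, and passed as lower in prehypertrophic over proliferative samples, at -0.53, where the brightest probe did not pass.

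Of the neutral amino acid exchangers, Slc1a5 rose and Slc1a4 changed little. Slc1a5 encodes ASCT2, a glutamine carrier, and its levels were 2.47, 2.27, 2.16 and 1.996 in proliferative samples 1 to 4, 2.57, 2.57, 2.53 and 2.32 in prehypertrophic samples and 3.10, 2.97, 2.77 and 2.87 in hypertrophic samples. The hypertrophic samples lay above all others. The change was 0.72 ± 0.040 (SE, adjusted p = 0.000213) in hypertrophic over proliferative samples and 0.34 ± 0.040 (SE, adjusted p = 0.00343) in prehypertrophic over proliferative samples. Slc1a4, which encodes ASCT1, a carrier of alanine, serine and cysteine, had levels of 3.26, 3.08, 3.16 and 2.86 in proliferative samples 1 to 4, 2.95, 3.08, 3.13 and 2.81 in prehypertrophic samples and 3.03, 2.89, 2.78 and 2.91 in hypertrophic samples. These ranges overlapped in every pair of zones, and the change of -0.13 ± 0.025 (SE, adjusted p = 0.0125) in hypertrophic over proliferative samples, though past the threshold, was among the smallest that passed.

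The SLC6 genes held the largest fall over the whole axis and one of the largest rises. Slc6a9 encodes GlyT1, a glycine carrier. Its levels were 1.06, 0.64, 0.68 and 0.36 in proliferative samples 1 to 4, 2.68, 2.79, 2.72 and 2.37 in prehypertrophic samples and 3.24, 2.997, 3.13 and 3.16 in hypertrophic samples. Prehypertrophic and hypertrophic samples all lay more than 1 unit above the proliferative ones. The change was 2.40 ± 0.054 (SE, adjusted p = 2.36e-05) in hypertrophic over proliferative samples, 1.94 ± 0.054 (SE, adjusted p = 6.96e-05) in prehypertrophic over proliferative samples and 0.46 ± 0.054 (SE, adjusted p = 0.00254) in hypertrophic over prehypertrophic samples. The gene has 1 probe on the array.

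Slc6a12 encodes BGT1, which carries betaine and GABA and helps kidney cells adapt to high osmolarity. Its levels were 2.10, 1.998, 1.80 and 1.92 in proliferative samples 1 to 4, 0.45, 0.63, 0.55 and 0.85 in prehypertrophic samples and -0.88, -0.27, -1.07 and -0.62 in hypertrophic samples. The 3 zones stepped down without overlap. The change was -2.52 ± 0.085 (SE, adjusted p = 5.13e-05) in hypertrophic over proliferative samples, -1.22 ± 0.085 (SE, adjusted p = 0.000658) in prehypertrophic over proliferative samples and -1.30 ± 0.085 (SE, adjusted p = 0.000436) in hypertrophic over prehypertrophic samples. It too has 1 probe.

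The other SLC6 genes moved by less than 1 unit by their brightest probe. Slc6a8, the creatine carrier gene, rose along both steps, with 0.46 ± 0.036 in prehypertrophic over proliferative samples and 0.23 ± 0.036 in hypertrophic over prehypertrophic samples. The taurine carrier gene Slc6a6 gave -0.031 ± 0.028 in hypertrophic over proliferative samples and did not pass, while its dimmer probe fell by 1.61. The GABA carrier gene Slc6a13 rose by 0.43 ± 0.044 there, and by 1.18 at its dimmer probe. Slc6a14, which encodes a carrier of neutral and cationic amino acids, changed by -0.68 ± 0.030 in hypertrophic over proliferative samples. Its dimmer probe gave 0.040 there and did not pass, and the mean of both probes did not pass. The carrier genes Slc6a11, Slc6a16 and Slc6a17 rose a little in prehypertrophic over proliferative samples, by 0.13 ± 0.036, 0.32 ± 0.045 and 0.22 ± 0.028, and fell in hypertrophic over prehypertrophic samples, as did Slc6a18 at -0.34 ± 0.046 and the glycine carrier gene Slc6a5 at -0.63 ± 0.13. The fall of Slc6a5 was lost in 3 of 19 settings, among them those without array 3 or 4. Its prehypertrophic and hypertrophic levels overlapped. The proline carrier gene Slc6a7 passed in no comparison.

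Slc6a15 encodes the carrier B0AT2 and lay near the background, with levels of -3.14, -3.03, -3.75 and -2.87 in proliferative samples 1 to 4, -3.48, -3.39, -3.85 and -3.39 in prehypertrophic samples and -3.24, -3.22, -3.31 and -3.53 in hypertrophic samples. Its change passed in prehypertrophic over proliferative samples alone, at -0.29 ± 0.066 (SE, adjusted p = 0.0269), although the levels of these zones overlapped, and it was lost in 8 of 19 settings, among them those without array 1, 3, 4, 5 or 6. Slc6a19, the intestinal and renal neutral amino acid carrier gene, lay above the 95th percentile of the negative controls in 0 of 12 samples and passed in no comparison. The monoamine carrier genes Slc6a2 and Slc6a3 changed by -0.21 ± 0.056 and 0.31 ± 0.039 in hypertrophic over proliferative samples, where the levels of both overlapped. That call of Slc6a2 was lost in 7 of 19 settings, among them those without array 1, 3, 4, 5 or 6, and that of Slc6a3 in 2. Slc6a4 passed in no comparison.

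Among the proton-coupled carriers, the brightest probes of Slc36a1 and Slc36a2 were higher in the hypertrophic zone. Slc36a1 encodes PAT1, a carrier of the lysosome and plasma membrane, and its levels were -1.06, -0.83, -1.12 and -1.16 in proliferative samples 1 to 4, -1.23, -0.93, -0.98 and -1.27 in prehypertrophic samples and -0.27, -0.33, -0.56 and -0.49 in hypertrophic samples. All hypertrophic samples lay above all others. The change was 0.70 ± 0.034 (SE, adjusted p = 0.000134) in hypertrophic over proliferative samples and 0.69 ± 0.034 (SE, adjusted p = 0.000193) in hypertrophic over prehypertrophic samples. A second probe for the same accession passed in the opposite direction in both, at -0.55 and -0.68, so no direction can be given for the gene.

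Slc36a2 encodes PAT2, which carries glycine and proline, and its levels were -1.92, -1.36, -1.44 and -1.45 in proliferative samples 1 to 4, -1.15, -1.06, -1.39 and -1.15 in prehypertrophic samples and -0.71, -0.47, -0.55 and -0.54 in hypertrophic samples. The hypertrophic samples lay above all others. The change was 1.03 ± 0.11 (SE, adjusted p = 0.0019) in hypertrophic over proliferative samples and 0.77 ± 0.11 (SE, adjusted p = 0.0051) in hypertrophic over prehypertrophic samples, and its second probe, with a standard error of 0.57, did not pass. With the mean of both probes Slc36a2 did not pass in hypertrophic over proliferative samples, at 0.39 (adjusted p = 0.338). Slc36a3 and Slc36a4 changed by -0.30 ± 0.042 and -0.68 ± 0.11 in hypertrophic over prehypertrophic samples, both as falls that passed.

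Agreement between probes was checked for all 30 genes with several tested probes. These fits ran over single probes, and in them the narrow calls of Slc6a11, Slc38a10 and Slc7a1 in prehypertrophic over proliferative samples did not pass, while a second Slc7a1 probe passed there as lower, at -0.26. Over 90 pairs of a gene and a comparison, probes of 1 gene passed in opposite directions in 5: Slc36a1 in both comparisons with the hypertrophic zone, Slc38a2 in hypertrophic over prehypertrophic samples, and Slc38a1 and Slc38a9 in prehypertrophic over proliferative samples. Slc38a2, Slc1a3, Slc1a1, Slc7a11 and Slc7a6 kept the direction of their change in hypertrophic over proliferative samples in at least 2 probes that passed. The rises of Slc43a2, Slc38a4, Slc3a2, Slc36a2 and Slc7a15 had no such second probe. Neither had the falls of Slc38a10, Slc6a14 and Slc6a17, although each of these genes has another tested probe. Slc38a5, Slc7a3, Slc7a5, Slc7a8, Slc7a7, Slc43a1, Slc6a9 and Slc6a12 have 1 probe each, and so no such check.

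**Figure D3:**
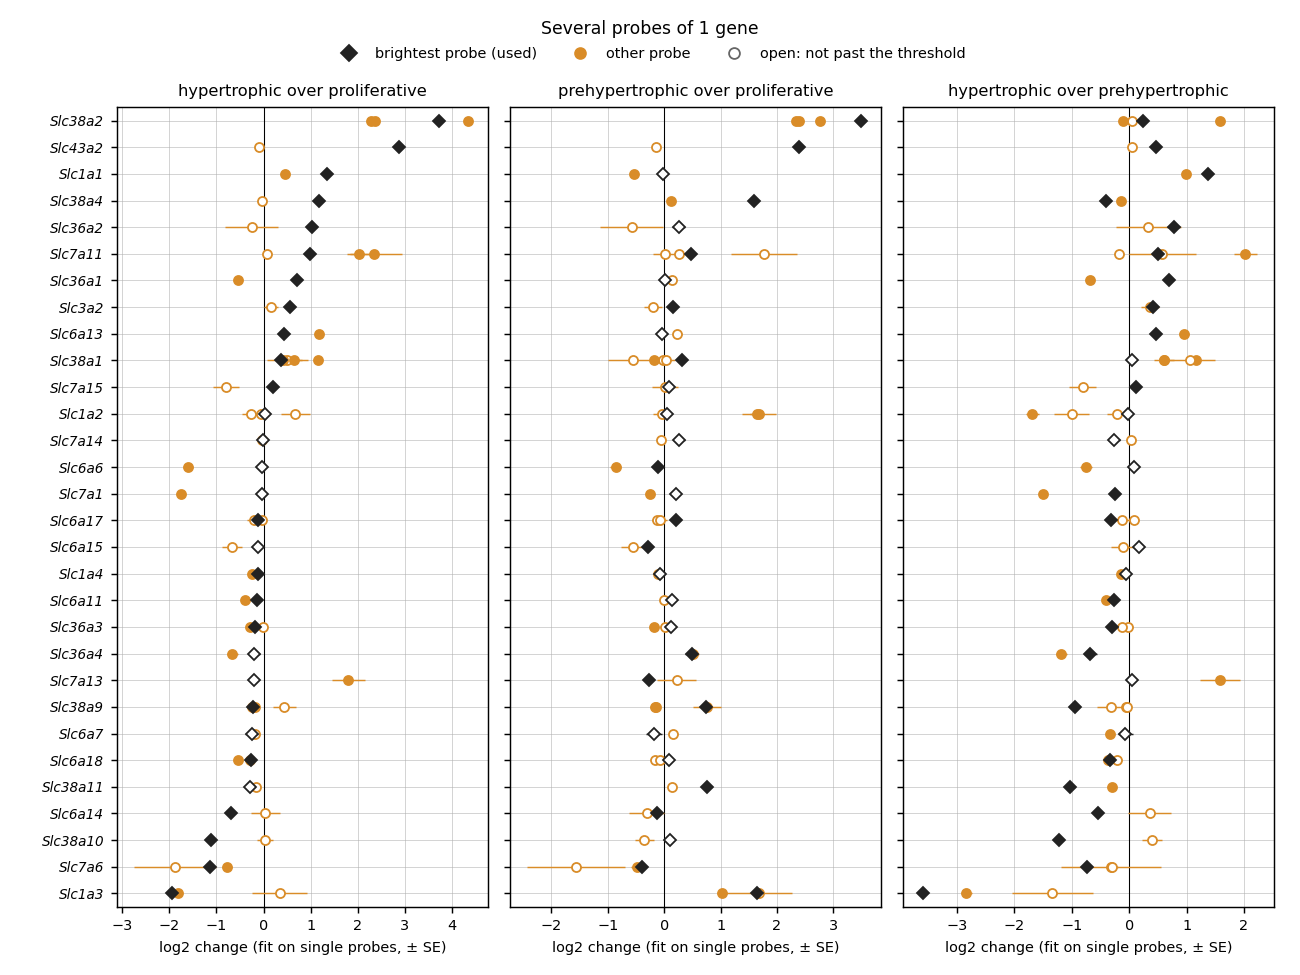
Log2 change ± SE of every tested probe of the 30 transporter genes with several probes (y axis), in 3 comparisons (x axes); black diamonds are the brightest probe, used for the gene, orange circles the others, and open symbols did not pass. All 4 Slc38a2 probes lie between 2.28 and 4.35 in the first panel, whereas the other probe of Slc43a2 lies at -0.096 and that of Slc36a1 at -0.55.

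Several of these genes lie next to each other in the genome. In the RefSeq annotation of GRCm38.p6, 7 pairs of the 58 genes had at most 1 protein-coding gene between them. By their brightest probes the neighbours Slc38a1, Slc38a2 and Slc38a4 rose in both comparisons with the proliferative zone, with the opposed probe of Slc38a1 and the second probe of Slc38a4 as given above. Other neighbours did not share a direction: Slc43a1 rose and Slc43a3 fell in hypertrophic over proliferative samples, and Slc6a13 rose by 0.43 ± 0.044 where Slc6a12 fell. The brightest probes of Slc36a1 and Slc36a2 were higher and that of Slc36a3 was lower in the same comparison, with the opposed probes of Slc36a1 as given above.

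Genes of the integrated stress response, which amino acid shortage and other stresses set off, changed widely alongside. ATF4 is the transcription factor made when such stress slows translation, and it drives carriers, synthetases and enzymes of amino acid supply. The list of 27 amino acid response genes was chosen with earlier results of these data known. Its genes are targets and mediators of the ATF4 branch of that response, whatever the trigger. Of these, 16 rose and 9 fell in hypertrophic over proliferative samples, 18 rose and 7 fell in prehypertrophic over proliferative samples, and 17 rose and 9 fell in hypertrophic over prehypertrophic samples. Those that passed made up 92.6%, 92.6% and 96.3% of the list, against 58.9%, 45.9% and 58.1% of all features. Their median change was 0.47, 0.56 and 0.23 in that order, against -0.03, 0.02 and -0.04 for all features. Atf4 itself rose by 1.02 ± 0.027 in hypertrophic over proliferative samples and by 0.65 ± 0.027 in prehypertrophic over proliferative samples.

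The largest rises of that list in hypertrophic over proliferative samples were those of the transcription factors Cebpb, 4.01 ± 0.047 (SE, adjusted p = 1.82e-05), and Atf3, 3.22 ± 0.15 (SE, adjusted p = 0.000129). In prehypertrophic over proliferative samples they were Chac1, an enzyme that degrades glutathione, at 3.07 ± 0.049 (SE, adjusted p = 4.04e-05), and Atf3 at 2.19 ± 0.15 (SE, adjusted p = 0.000638). The serine synthesis gene Psat1 fell in both comparisons, at -1.34 ± 0.044 and -1.57 ± 0.044, together with Stc2 at -1.15 ± 0.045 in hypertrophic over proliferative samples and Phgdh at -1.03 ± 0.032 in prehypertrophic over proliferative samples. In hypertrophic over prehypertrophic samples Cebpb and Atf5 rose most, by 3.10 ± 0.047 and 1.56 ± 0.060, and Stc2 and Vldlr fell most, at -2.56 ± 0.045 and -1.66 ± 0.033, the second with a ratio left out for an outlier flag. The list therefore held members of both directions.

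The amino acid response element, TGATGNAA, is the DNA sequence that ATF4 binds with a partner of the C/EBP family. It was searched on both strands in the 250 bases before each RefSeq transcription start, in 62 such windows of 41 of the 58 genes. It was found in 3 windows of 2 genes, Slc7a11 and Slc7a7, and in 3.45% of all 32851 windows. Slc7a11 holds 2 matches that face each other, TGATGCAA starting 66 bases and TTGCATCA starting 47 bases before the start. Slc7a7 holds 1 match in each of 2 windows of different starts. The windows of these genes are shown with that of Slc38a2, which has the largest rise and no match in this window. All are given 5′ to 3′ on the minus strand of GRCm38.p6, from RefSeq, with the matches in capitals. A match is a description of the letters, not evidence of a bound site.
Slc7a11, chr3:50443614-50443863: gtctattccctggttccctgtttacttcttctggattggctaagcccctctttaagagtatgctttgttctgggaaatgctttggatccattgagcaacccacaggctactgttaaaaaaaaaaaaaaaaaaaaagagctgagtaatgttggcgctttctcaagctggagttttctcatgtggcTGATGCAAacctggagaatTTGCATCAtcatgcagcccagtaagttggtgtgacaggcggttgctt
Slc7a7, chr14:54417945-54418194: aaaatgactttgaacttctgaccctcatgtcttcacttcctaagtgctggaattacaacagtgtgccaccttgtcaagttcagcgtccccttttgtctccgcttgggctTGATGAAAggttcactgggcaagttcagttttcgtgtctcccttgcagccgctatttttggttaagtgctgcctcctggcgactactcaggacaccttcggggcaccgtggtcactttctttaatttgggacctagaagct
Slc7a7, chr14:54417703-54417952: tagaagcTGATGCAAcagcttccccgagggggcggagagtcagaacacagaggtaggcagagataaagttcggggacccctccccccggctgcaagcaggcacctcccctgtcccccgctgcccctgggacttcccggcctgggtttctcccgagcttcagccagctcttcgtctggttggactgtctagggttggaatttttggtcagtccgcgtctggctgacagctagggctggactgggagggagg
Slc38a2, chr15:96699729-96699978: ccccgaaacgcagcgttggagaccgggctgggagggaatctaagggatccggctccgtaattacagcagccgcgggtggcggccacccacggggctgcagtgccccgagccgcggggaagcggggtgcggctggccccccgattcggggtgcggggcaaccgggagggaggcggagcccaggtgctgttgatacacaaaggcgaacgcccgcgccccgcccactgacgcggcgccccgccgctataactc

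Cytosolic tRNA synthetases, which load amino acids onto tRNA, were split. Of 19 genes, 8 rose and 7 fell in hypertrophic over proliferative samples, 9 rose and 7 fell in prehypertrophic over proliferative samples, and 9 rose and 6 fell in hypertrophic over prehypertrophic samples, which is 78.9%, 84.2% and 78.9% of the list against the same 58.9%, 45.9% and 58.1% of all features. Sars and Aars rose most in hypertrophic over proliferative samples, by 1.90 ± 0.031 and 1.79 ± 0.027, and Mars1 and Kars fell most, at -0.76 ± 0.027 and -0.66 ± 0.026. Aars and Gars led the rises in prehypertrophic over proliferative samples, at 1.15 ± 0.027 and 0.99 ± 0.029. Sars and Lars led those in hypertrophic over prehypertrophic samples, at 1.31 ± 0.031 and 0.92 ± 0.027.

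The 35 genes of amino acid sensing by mTORC1 were split evenly, with 15 higher and 15 lower in hypertrophic over proliferative samples, 14 and 12 in prehypertrophic over proliferative samples and 13 and 15 in hypertrophic over prehypertrophic samples. These were 85.7%, 74.3% and 80% of the list, against 58.9%, 45.9% and 58.1% of all features. Rptor, the raptor subunit of mTORC1, rose by 1.21 ± 0.034 (SE, adjusted p = 3.48e-05) in hypertrophic over proliferative samples. Sesn1, a sestrin that holds mTORC1 back, rose by 1.07 ± 0.024 (SE, adjusted p = 2.36e-05) there and by 1.13 ± 0.024 (SE, adjusted p = 5.02e-05) in prehypertrophic over proliferative samples. Seh1l, of the GATOR2 complex, and Sesn3 fell most in hypertrophic over proliferative samples, at -1.45 ± 0.027 and -1.16 ± 0.027. In hypertrophic over prehypertrophic samples the GTPase gene Rraga fell most, at -1.32 ± 0.028 (SE, adjusted p = 4.4e-05).

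Enzymes that use the carried amino acids showed some of the largest changes of the related lists. Of 25 genes of glutamine, proline, glutathione and related metabolism, 15 rose and 6 fell in hypertrophic over proliferative samples, 10 rose and 9 fell in prehypertrophic over proliferative samples, and 12 rose and 6 fell in hypertrophic over prehypertrophic samples. The shares that passed were 84%, 76% and 72%, where 58.9%, 45.9% and 58.1% of all features did. Gldc, the glycine decarboxylase, rose by 5.24 ± 0.10 (SE, adjusted p = 2.01e-05) in hypertrophic over proliferative samples and by 4.77 ± 0.10 (SE, adjusted p = 5.1e-05) in prehypertrophic over proliferative samples. Gclm and Gclc, the subunits of the enzyme that starts glutathione synthesis, rose by 2.16 ± 0.16 and 2.13 ± 0.027 in hypertrophic over prehypertrophic samples. Gsr, glutathione reductase, rose by 1.75 ± 0.024 (SE, adjusted p = 3.88e-05) in prehypertrophic over proliferative samples. The prolyl hydroxylase gene P4ha2 and the branched-chain transaminase gene Bcat1 fell in hypertrophic over proliferative samples, at -1.75 ± 0.034 and -1.84 ± 0.036. Bckdhb and P4ha1 fell most in prehypertrophic over proliferative samples, at -1.13 ± 0.050 and -1.03 ± 0.028.

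Of 9 genes of transporter partners and regulators, 5 rose and 3 fell in hypertrophic over proliferative samples (88.9%, against 58.9% of all features). The kinase gene Sgk1, whose product keeps several carriers at the membrane, rose by 3.44 ± 0.032 (SE, adjusted p = 1.82e-05) there and by 3.58 ± 0.032 (SE, adjusted p = 3.91e-05) in hypertrophic over prehypertrophic samples. Txnip rose by 2.47 ± 0.090 and 2.63 ± 0.090 in the same 2 comparisons. In prehypertrophic over proliferative samples Sgk3 and Nfe2l2, the oxidative stress factor that drives Slc7a11 in other cells, rose by 1.20 ± 0.054 and 1.13 ± 0.028. Cltrn, the partner of some renal SLC6 carriers, fell at -1.18 ± 0.18, with a ratio left out for an outlier flag. The ubiquitin ligase gene Nedd4 fell in hypertrophic over proliferative samples, at -0.79 ± 0.025.

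Of 18 amino acid carriers outside these families, 7 rose and 8 fell in hypertrophic over proliferative samples, 4 rose and 2 fell in prehypertrophic over proliferative samples, and 5 rose and 7 fell in hypertrophic over prehypertrophic samples. The share that passed was above that of all features in the first and last of these, at 83.3% and 66.7% against 58.9% and 58.1%, and below it in the second, at 33.3% against 45.9%. Slc15a3, a lysosomal carrier of histidine and peptides, rose by 1.45 ± 0.062 (SE, adjusted p = 9.79e-05) in hypertrophic over proliferative samples. Slc25a13, the mitochondrial aspartate and glutamate carrier, fell with -1.77 ± 0.028 (SE, adjusted p = 1.82e-05) in the same comparison and -1.86 ± 0.028 (SE, adjusted p = 3.89e-05) in prehypertrophic over proliferative samples.

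**Figure D4:**
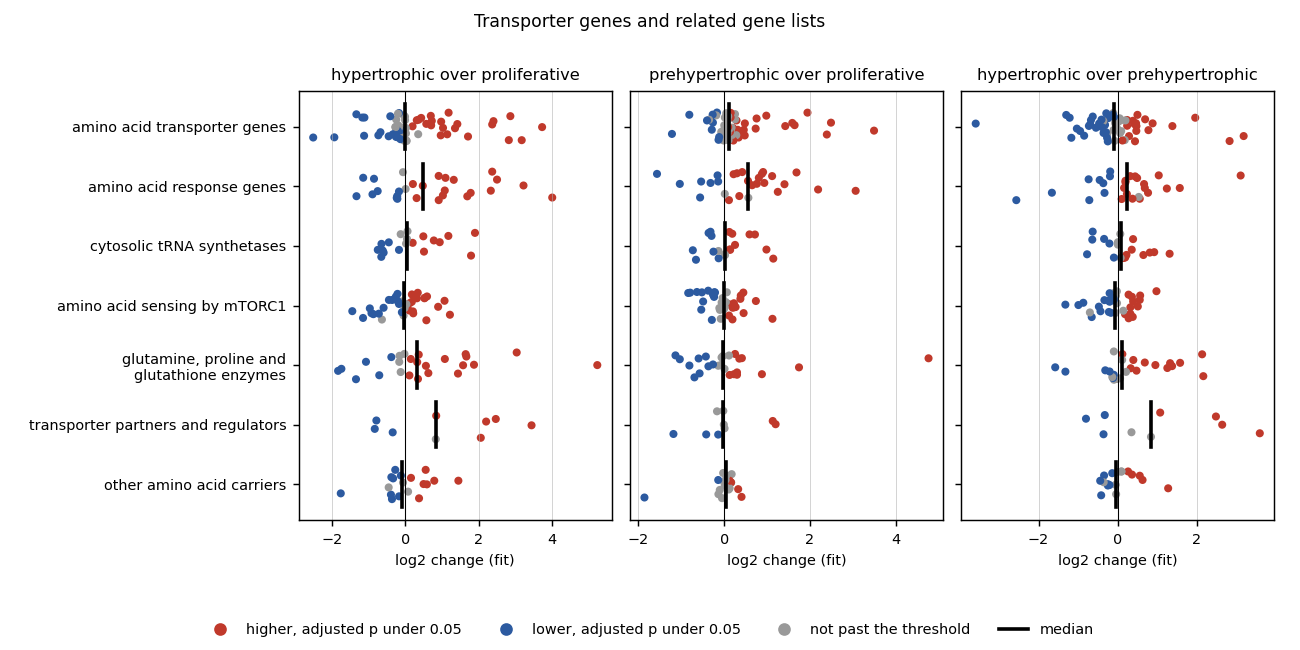
Log2 change of each gene (points, x axes) in the 58 transporter genes and 6 related lists (y axis), for 3 comparisons of zones; red and blue points passed as higher and lower, grey points did not, and black bars are medians. The median of the amino acid response genes lies at 0.47, 0.56 and 0.23, and that of the transporter genes at -0.02, 0.12 and -0.09.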

How the data were processed

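The values used were the processed signals of the deposited scanner files, an intensity per spot for 1 channel of each array, written by Agilent Feature Extraction 8.1.1.1 per the file headers. Background subtraction, spatial detrending and dye normalization had already been applied by the authors' scanner software, per the file headers. Other values used were the deposited spot flags (saturated, outlying, well above background). A deposited table of log2 values was left out, because just 1 of 12 columns was closest to the scanner file of the sample it is labelled with.

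From these, log2 ratios were normalized within arrays by limma's loess (limma 3.58.1, R 4.3.3), with control spots and outlier-flagged spots at weight 0 and flagged ratios left out. Spots of a probe were averaged, a probe was kept (40017 of 41174) if the scanner flagged it as well above background in 4 or more of the 12 samples, and the brightest kept probe stood for each gene. The 6 ratios of each feature were fitted with terms for zone and dye (lmFit and eBayes, 3 residual degrees of freedom), with Benjamini-Hochberg adjustment over 27173 features at 0.05. The number of arrays limits the precision. The pipeline was tested on simulated data.

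Samples of the same number deviated together most where they shared an array (correlation 0.45 to 0.56, 4 pairs). The other 8 pairs gave -0.25 to 0.25, 2 of them over 0.1, and numbers were not used to pair samples in the main fit. Symbols came from the platform annotation; promoters and gene order came from RefSeq's tables for GRCm38.p6. Values in every sample are given for the 6 largest rises and falls that passed in each comparison and for a fixed set of transporters. For related lists, genes were taken from the 2 largest changes each way, and Atf4 was added outside that rule. The transporter genes, related lists and markers were chosen with earlier results of these data known. The alternatives were other normalizations, filters, probe rules and fits, and leaving out each array.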

Additional observations from a re-analysis of the deposited data

Results flagged for a closer look

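The levels of 28 transporter genes were checked for a sample far from the other 3 of its zone, in 83 groups of 4 samples. Chance alone flags about 1 in 20 such groups, and 1 was found. Slc36a2 stood at -1.92 in proliferative sample 1, against -1.45 to -1.36 in the other proliferative samples, and the gap made up 0.831 of the zone's range.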

How the results depend on the processing

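The counts and the named genes' changes (84 results) were recomputed under 19 other settings, 1 of them chosen after seeing the data, a filter on the 95th percentile of the negative controls, which moved no count of transporter genes by over 1.5 times. In hypertrophic over proliferative samples, 33 to 48 transporter genes passed over all alternatives, and in hypertrophic over prehypertrophic samples 36 to 45. The counts in prehypertrophic over proliferative samples were the ones that moved. With the replicate number as a block (replicate block), 21 of the 54 genes that had a value passed, in place of 34 of 58. Among them 5 were lower in place of 10, and 7748 features passed in place of 12483. With each pair of arrays averaged, 21 of 54 genes passed, 5 of them lower, and without the dye term 5 were lower. Leaving out 1 array in turn gave 4 to 8 lower there; the lowest, 4, was without array 5, and 6 were lower without array 6. The replicate block moved no other count by over 1.5 times.

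Under the mean of a gene's probes, 3 changes in prehypertrophic over proliferative samples changed sign: Slc38a10 to -0.13, Slc3a2 to -0.022 and Slc7a1 to -0.026. The same mean ended the calls of Slc36a1 in both comparisons with the hypertrophic zone (0.077 and 0.0036), of Slc36a2 (0.39 in hypertrophic over proliferative samples) and of Slc7a6 in prehypertrophic over proliferative samples (-0.82, adjusted p = 0.0947), and cut Slc43a2 to 1.38 from 2.86 in hypertrophic over proliferative samples. The cause was not tested. Leaving out 1 array ended, for at least 1 of the arrays, 8 of 41, 13 of 34 and 8 of 43 calls of transporter genes in hypertrophic over proliferative, prehypertrophic over proliferative and hypertrophic over prehypertrophic samples. Normexp on mean and background signals was not run, since the files used hold the processed signal. Genes near the negative controls, such as Slc3a1 and Slc6a19, are limited by signal over background.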
